A study of Mus musculus with 4 samples.

Results

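The replication and nucleotide supply genes described here are 48 named genes whose products license, unwind, copy and repackage DNA in S phase or make its building blocks. They were chosen by symbol, and all 48 were found among the 16857 genes of the deposited expression table. By role they fall into 5 licensing genes, 12 helicase genes, 6 clamp and clamp loader genes, 7 polymerase and primase genes, 5 strand processing genes, 5 nucleotide synthesis genes, 4 genes that copy chromatin and DNA methylation, 2 cyclin E genes and 2 fork protection genes. RNA was sequenced in bulk from 4 mouse adenoma colonoid lines, epithelial structures grown in culture from colon, with 1 library per line. Lines 75 and 179 are labelled G0 and heterozygous for an LSL-mTERT allele of the telomerase gene, and lines 157 and 236 are labelled G2 and homozygous for it. All 4 lines carry an Apc-null genotype, so neither group is a wild type. The design text sets colonoids of low against high chromosomal instability, and the labels do not say which group is which. G0 and G2 are the labels' names of the groups and not phases of the cell cycle. The labels state no age, treatment or passage, and do not say whether the lines derive from different mice. P-values therefore measure only the spread between these lines.

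Replication starts at origins that are marked in advance. The origin recognition complex, with Cdc6 and Cdt1, loads the MCM ring on DNA before S phase, and geminin holds Cdt1 in check once S phase begins. Cdc45 and the GINS complex then turn the ring into the working helicase, the clamp loader RFC places the sliding clamp PCNA, and the polymerases copy both strands from nucleotides that ribonucleotide reductase and thymidylate synthase supply. Genes of this machinery are known targets of the E2F transcription factors, and in the intestine they are most active in the dividing cells of the crypt.

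Replication genes were lower in G2 than in G0 in nearly every role. Levels are normalized counts throughout, that is counts divided by the authors' size factors. Summed over the 48 genes they came to 71564 and 74710 in the G0 libraries and 48505 and 48499 in the G2 libraries, a sum 1.51-fold lower in G2. In bulk RNA, fewer cells in S phase and less of each transcript per cell cannot be told apart. The G0 libraries were thus both high and the G2 libraries both low, with no overlap. In limma, a linear model fitted to all genes on log2(normalized count + 1), 20 of the 48 genes fell in G2 at an adjusted p under 0.05 (41.7%), against 4.56% of all genes tested. None of the 48 rose (0 of 48, also at an unadjusted p under 0.05), where 5.93% of all genes tested did. Both G2 libraries lay below both G0 libraries for 44 of the 48 genes (91.7%), against 28.6% of all genes tested, and above both for 0, against 29.2%. The median log2 fold change of the 48 genes, G2 minus G0, was -0.58, and that of all 13981 genes tested was 0.01. All 48 passed the filter on low values, with mean levels from 64.2 for Gins3 to 4022 for Dnmt1. The list was chosen with earlier results of these data known, so its counts are a description.

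**Figure D1:**
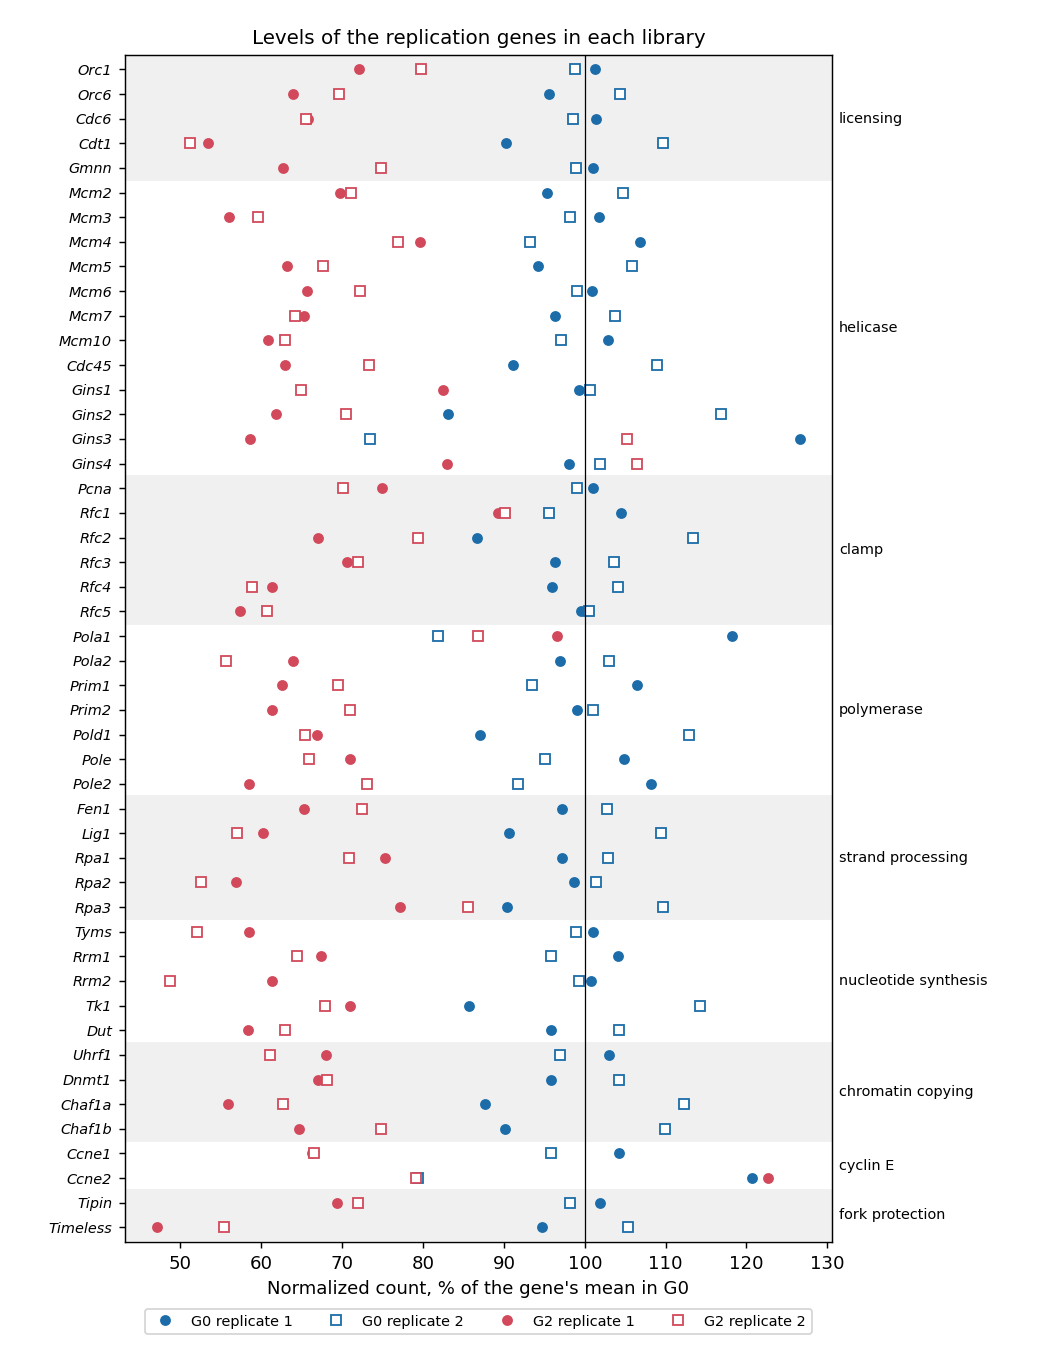
Level of each replication gene (vertical axis, grouped by role) in the 4 libraries, as a percentage of the gene's mean normalized count in G0. Blue marks are the G0 lines and red marks the G2 lines, with filled circles for replicate 1 and open squares for replicate 2. The red marks lie to the left of the blue marks for 44 of the 48 genes, and the groups overlap for Gins3, Gins4, Pola1 and Ccne2.

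Many of the calls lay close to the threshold. Ccne1 was the last gene past the threshold (adjusted p = 0.0492), and Pole, Rfc4 and Mcm2 lay just beyond it (adjusted p = 0.0507, 0.0509 and 0.0530). The calls could not be checked by leaving 1 library out, since 1 group then holds a single line, and only the size of change is given there. Without the intensity trend limma called 0 of the 48 genes (35 lower at an unadjusted p under 0.05). That fit called 241 of all 13981 genes tested lower. With scaling by library totals 13 of the 48 were called lower, and 484 of all 14040 genes tested. The median log2 fold change of the 48 genes moved little, and lay between -0.53 and -0.62 with each library left out. Single genes moved more, and the signs of Gins3, Gins4, Pola1 and Ccne2 turned in some of these fits.

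The libraries were alike in depth, with 16545429 to 17901744 recovered counts, and 14119 to 14215 genes had a count in each. Tert, the telomerase gene that the labels give as altered, stood at 93.3 and 97.5 in G0 and at 0 and 0.98 in G2, the last being 1 count. The Y-linked genes Ddx3y, Eif2s3y, Kdm5d and Uty were without a count in the G0 lines and had means of 315 to 524 in G2. The presence of Y transcripts and the group cannot be told apart for any gene described here. Of 8 markers of colonic epithelium 2 fell, 1 rose and 5 did not pass, and their summed level ran from 116348 to 160149. Epcam stood at 5995 and 6994 in G0 and at 6844 and 8669 in G2, while Cdx1, a colon transcription factor, read only 1.95 to 8.07 in the 4 lines. Its relative Cdx2 fell from 2395 and 3199 to 270.3 and 187, and Vil1, a protein of the brush border, from 4734 and 6383 to 1731 and 787 (adjusted p = 0.00043 and 0.0103). Cdh1, the epithelial cadherin, rose from 14095 and 13728 to 25575 and 24578 (adjusted p = 0.0171).

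E2F motifs are the feature for which promoters of these genes are best known, so the promoters were searched for them. RefSeq windows on GRCm38.p6, from 250 bases before to 50 after an annotated start, were at hand for 38 of the 48 genes. The search covered the E2F letters TTTCCCGC, TTTGGCGC, TTTCGCGC and TTTGCCGC on both strands. At least 1 of these 8-base words stood in a window of 15 of the 38 genes (39.5%), and in 512 of the 12975 genes of the table that had a window (3.9%). CCAAT, the letters bound by NF-Y, searched on both strands as was the GC box, stood in 23 of the 38 (60.5%) and in 42.7% of the table's genes, and the GC box GGGCGG in 29 (76.3%) and 61.5%. Of the 20 genes that fell, 9 held an E2F word and 11 did not, and of the 18 others with a window 6 did and 12 did not. The median log2 fold change was -0.61 for the 15 genes with a word and -0.60 for the 23 without. For the 9 genes that fell and held a word, 30 bases around the word nearest the start are shown on the gene's strand, with the word in capitals. They were chosen after the search, to let the shared letters be seen.
Mcm3 (chr1:20820275-20820304, minus strand): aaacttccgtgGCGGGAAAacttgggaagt
Mcm5 (chr8:75109349-75109378, plus strand): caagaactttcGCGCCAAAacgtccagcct
Mcm6 (chr1:128359734-128359763, minus strand): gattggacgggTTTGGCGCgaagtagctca
Mcm7 (chr5:138171849-138171878, minus strand): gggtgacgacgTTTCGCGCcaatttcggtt
Cdc6 (chr11:98908002-98908031, plus strand): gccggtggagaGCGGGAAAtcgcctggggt
Cdt1 (chr8:122568035-122568064, plus strand): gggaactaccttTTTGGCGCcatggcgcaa
Lig1 (chr7:13278841-13278870, plus strand): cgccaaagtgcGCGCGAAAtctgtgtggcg
Dnmt1 (chr9:20952574-20952603, minus strand): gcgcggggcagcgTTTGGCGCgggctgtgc
Uhrf1 (chr17:56304117-56304146, plus strand): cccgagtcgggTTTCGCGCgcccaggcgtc
Mcm3, Mcm5, Mcm6, Mcm7 and Dnmt1 held more than 1 E2F word, and the second of Mcm3 lies further downstream. In the Mcm5 stretch the word TTTCGCGC overlaps the one in capitals. The 130 bases before the Mcm3 start hold 3 CCAAT words, in capitals here. Of these the one written ATTGG is CCAAT on the other strand.
Mcm3 (chr1:20820313-20820442, minus strand): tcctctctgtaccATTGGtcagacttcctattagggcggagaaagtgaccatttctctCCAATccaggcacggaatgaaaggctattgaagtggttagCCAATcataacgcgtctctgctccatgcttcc
The words are letters in a window and no measurement of binding was made.

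Among the 5 licensing genes, Cdt1 and Cdc6 fell and Orc1, Orc6 and Gmnn did not pass. Cdt1, which brings the MCM ring to origins and lies on chromosome 8 from 122568015 to 122573130, stood at 1695 and 2059 in the G0 libraries and at 1002 and 959.9 in the G2 libraries. The groups lay well apart, although the G0 lines differed from each other more than the G2 lines did. Its mean was 1.91-fold lower in G2 (log2 fold change -0.93, SE 0.15, adjusted p = 0.0113). Cdc6, the ATPase that works with Cdt1, read 981 and 954 in G0 against 636 and 634 in G2, with very little spread within either group (1.52-fold lower, adjusted p = 0.0377). The pseudogene Gm9430 matches 33.1% of its transcript. Orc1, the largest subunit of the origin recognition complex, read 189 and 184 in G0 against 134 and 149 in G2. Its groups did not overlap, but the 95% interval of its log2 fold change ran from -0.91 to 0.12 (adjusted p = 0.285). Orc6, another subunit, went from 427 and 466 to 285 and 311 (adjusted p = 0.080). Gmnn, which encodes the Cdt1 inhibitor geminin, went from 203 and 199 to 126 and 151 (adjusted p = 0.175). The inhibitor and the factor it inhibits were thus both lower in both G2 libraries.

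The 12 helicase genes had 5 that fell, Mcm3, Mcm5, Mcm6, Mcm7 and Mcm10, and 7 that did not pass. Mcm3, a subunit of the ring on chromosome 1 from 20802966 to 20820312, was at 3765 and 3630.5 in G0 and at 2069 and 2203 in G2. It had the lowest p of this role (1.73-fold lower, log2 fold change -0.79, SE 0.13, adjusted p = 0.0110). Mcm7 gave 4352 and 4689 against 2949 and 2902, and Mcm5 gave 2592 and 2910.3 against 1738 and 1859, which is 1.55-fold and 1.53-fold lower (adjusted p = 0.0262 and 0.0332). Mcm6 read 3834 and 3765 in G0 and 2495 and 2742 in G2 (1.45-fold lower, adjusted p = 0.0434). None of these 4 subunits overlapped between the groups. A processed pseudogene, Gm5487, matches 72.8% of the Mcm7 transcript at 97.7% identity and could share its reads. Mcm2 and Mcm4, the other subunits of the ring, also lay lower in both G2 libraries, at 1.42-fold and 1.28-fold, without passing (adjusted p = 0.0530 and 0.153). Mcm10, a helicase cofactor, went from 882 and 832 to 521 and 539.6 (1.62-fold lower, adjusted p = 0.0287). Cdc45, an integral part of the active helicase, had means of 611 ± 76.8 in G0 and 416 ± 44.9 in G2 (SD, n = 2 lines each; adjusted p = 0.0989 in limma).

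GINS, the 4-subunit partner of Cdc45, was less even than the ring, and 0 of its 4 genes passed in limma (1 at an unadjusted p under 0.05). Gins1 and Gins2 were lower in both G2 libraries, with means going from 196 to 144 and from 527 to 349 (adjusted p = 0.259 and 0.139). Gins2 shares 67.3% of its exon bases with Gse1 on the other strand, which rose in G2 from 1341 and 1446.5 to 2027 and 1961 (adjusted p = 0.0496). The sources used here do not give the strand setting of the counting, so reads of this pair cannot be told apart. Gins4 stood at 627 and 652 in G0 and at 530.5 and 681 in G2, so the groups overlapped (log2 fold change -0.09, 95% interval -0.50 to 0.32). Gins3, the least abundant of the 48 genes, read 89.4 and 51.8 in G0 and 41.3 and 74.3 in G2, and the spread within each group was wider than the gap between the means. The sign of Gins3 turned without G0 replicate 1 or G2 replicate 1 (log2 fold change 0.10 and 0.12), and that of Gins4 without G2 replicate 1 (0.09).

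**Figure D2:**
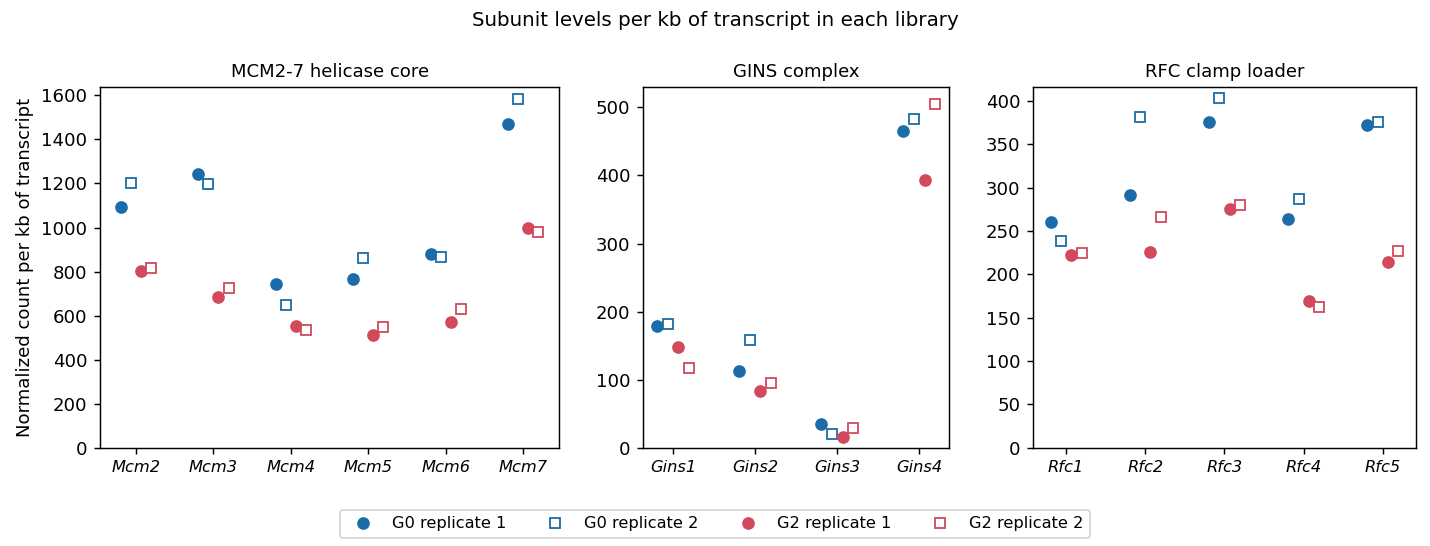
Normalized count per kb of transcript for the subunits of the MCM ring, the GINS complex and the RFC clamp loader in the 4 libraries. Each mark is one library, blue for G0 and red for G2. The 6 MCM subunits lie lower in both G2 libraries, while Gins3 and Gins4 overlap and Rfc1 differs least among the clamp loader genes.

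Set per kb of the longest coding transcript in GENCODE M21, Mcm7 had the highest level of the ring in both groups, 1526 per kb in G0 and 988 per kb in G2. Mcm3 and Mcm2 came next in G0, at 1220 and 1149 per kb, and their libraries overlapped there (1242 and 1198 against 1095 and 1204). In G2 Mcm2 stood above Mcm3, at 809 and 705 per kb. Mcm6, Mcm5 and Mcm4 followed in G0 at 872, 814 and 695 per kb, and in G2 lay at 601, 532 and 544 per kb. Across all 48 genes Pcna was the most abundant per kb (2462 in G0 and 1785 in G2), and Gins3 the least (35.5 and 20.6 in the G0 libraries, 16.4 and 29.5 in the G2 libraries). These levels rest on 1 transcript per gene, whichever one the cells use.

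Of the 6 clamp and clamp loader genes Rfc5 alone passed, although all 6 lay lower in both G2 libraries. Rfc5, a small subunit of the loader on chromosome 5 from 117379145 to 117389023, read 1041 and 1051 in the G0 libraries against 600.1 and 635 in the G2 libraries. Replicates were nearly equal in G0 (SD 7.45, n = 2), and the level was 1.69-fold lower in G2 (log2 fold change -0.76, SE 0.14, adjusted p = 0.0182). A processed pseudogene, Gm12870, matches 36.5% of the Rfc5 transcript at 96.2% identity and could share reads with it. Rfc4, another small subunit, was 1.67-fold lower (338 and 367 against 216 and 207) and just missed the threshold. Pcna, the sliding clamp itself, went from 3774 and 3701 to 2799 and 2621 (1.38-fold lower, adjusted p = 0.0626), and a processed pseudogene, Pcna-ps2, matches 51.4% of its transcript. Rfc1, the large subunit of the loader, showed the smallest difference of this role, with 1234 and 1129.6 in G0 and 1055 and 1065 in G2 (log2 fold change -0.16, 95% interval -0.47 to 0.16). Rfc2 and Rfc3 lay between these, at 1.37-fold and 1.40-fold lower.

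In the polymerase role 1 of 7 genes fell, Pola2, the B subunit of the polymerase alpha complex that starts each strand with primase. It lies on chromosome 19 from 5940543 to 5964238 and stood at 1365 and 1451 in G0 and at 901 and 784 in G2, 1.67-fold lower (log2 fold change -0.74, SE 0.14, adjusted p = 0.0218). Pola1, the catalytic subunit of the same complex, differed from this pattern: its levels of 389 and 269 in G0 and 318 and 285 in G2 overlapped (log2 fold change -0.10, 95% interval -0.64 to 0.44). Without G0 replicate 1 the sign of Pola1 turned, to 0.16. Whether Pola1 and Pola2 differ in their change was not tested. Prim1 and Prim2, which encode primase, Pold1 and Pole, the catalytic subunits of polymerases delta and epsilon, and Pole2, a polymerase epsilon subunit, were 1.46-fold to 1.52-fold lower in the mean, with both G2 libraries below both G0 libraries. Their adjusted p lay between 0.0507 for Pole and 0.0957 for Pole2.

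Lig1 and Rpa2 fell among the 5 strand processing genes. Lig1 encodes the ligase that joins the fragments of the lagging strand, on chromosome 7 from 13277175 to 13311426. Its levels were 2691 and 3249.5 in G0 and 1788 and 1694 in G2 (1.71-fold lower, log2 fold change -0.76, SE 0.14, adjusted p = 0.0207). Rpa2, a subunit of the RPA complex that coats single-stranded DNA, read 446 and 458 against 257 and 238, 1.83-fold lower (adjusted p = 0.0248). The 2 other RPA subunits did not pass: Rpa1 went from 2021 ± 81.0 to 1476 ± 64.2 (SD, n = 2; adjusted p = 0.0712 in limma), and Rpa3 had 204 and 248 in G0 and 174 and 194 in G2 (adjusted p = 0.426). All 3 subunits lay lower in both G2 libraries. Fen1, the flap nuclease of the lagging strand, was 1.45-fold lower and did not pass (adjusted p = 0.0624). An antisense gene, Gm10143, covers 78.8% of its exon bases.

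In nucleotide synthesis 4 of 5 genes fell, and the median log2 fold change of the role was -0.72. Rrm2, the small subunit of ribonucleotide reductase on chromosome 12 from 24708254 to 24714146, stood at 3099.9 and 3052 in G0 and at 1887 and 1496 in G2. Replicates lay further apart in G2 than in G0, and both G2 lines were lower (1.82-fold in the mean, log2 fold change -0.87, SE 0.15, adjusted p = 0.0156). Rrm1, the large subunit, read 4698 and 4324 in G0 against 3039 and 2905 in G2 (1.52-fold lower, adjusted p = 0.0312). Tyms, thymidylate synthase, went from 1506 and 1475 to 871 and 775 (1.81-fold lower, adjusted p = 0.0114). Dut, which removes dUTP so that uracil stays out of DNA, had 866 and 943 in G0 and 527 and 569 in G2 (1.65-fold lower, adjusted p = 0.0266). All of these genes showed a gap between the groups that was wider than the spread within either. Tk1, the thymidine kinase of the salvage route, read 1718 and 2291 in the G0 libraries against 1422 and 1361 in the G2 libraries. The lines of G0 lay far apart, and the 1.44-fold difference did not pass (adjusted p = 0.105).

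Genes that copy chromatin followed the same direction, and 3 of 4 fell. Dnmt1, the maintenance DNA methyltransferase on chromosome 9 from 20907206 to 20959888, was the most abundant of the 48 genes by count, at 4599 and 5005 in G0 and 3216 and 3269 in G2 (1.48-fold lower, log2 fold change -0.57, SE 0.13, adjusted p = 0.0374). Uhrf1, which guides Dnmt1 to newly copied DNA, read 2829 and 2661 against 1866 and 1676 (1.55-fold lower, adjusted p = 0.0286). A processed pseudogene, Gm5648, matches 44.3% of its transcript at 98.3% identity. Chaf1a, the large subunit of the CAF-1 histone chaperone, had 1077 and 1379 in G0 and 686 and 769 in G2 (1.69-fold lower, adjusted p = 0.0377). It shares 52.5% of its exon bases with Ubxn6 on the other strand, whose own levels overlapped between the groups (968 and 1436 in G0, 1160 and 1437 in G2). Chaf1b, the middle subunit of CAF-1, read 1082 and 1319.5 in G0 against 777 and 898 in G2, with an adjusted p of 0.0946 that missed the threshold.

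Of the cyclin E genes, whose products drive entry into S phase with Cdk2, Ccne1 fell and Ccne2 did not pass, and whether they differ in their change was not tested. Ccne1, on chromosome 7 from 38097984 to 38107490, was at 833 and 766 in G0 and at 529 and 532 in G2 (1.51-fold lower, log2 fold change -0.59, SE 0.15, adjusted p = 0.0492). Ccne2 gave 294 and 193 in G0 and 299 and 193 in G2, so replicate 1 was high and replicate 2 low in both groups and the group means were nearly equal. It was the 1 gene of the 48 with a log2 fold change above 0 (0.01, 95% interval -0.70 to 0.72). That sign turned without G0 replicate 2 or G2 replicate 1 (-0.29 and -0.31). Ccne2 also has the lowest GC content of the 48 transcripts, 36.3%, where the highest is 60.7%. Across the 48 genes, which share the same libraries, GC content went with the difference between the G0 replicates (replicate 2 minus replicate 1, Spearman rho 0.58) and with the log2 fold change (rho -0.37), a description with no test. With a smooth curve over GC taken out of each library, an alternative chosen after seeing the data, Ccne2 moved to -0.33 (adjusted p = 0.299), all 48 genes lay below 0, and 33 of them passed. Lower calls over the whole table also rose, from 638 to 972 of 13981 genes tested.

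Timeless and Tipin encode a pair of proteins that travels with the fork and protects it when it stalls. Timeless, on chromosome 10 from 128232063 to 128252941, had the lowest log2 fold change of all 48 genes (-0.96, SE 0.17, adjusted p = 0.0173). Its levels were 596 and 663 in G0 and 296 and 349 in G2, 1.95-fold lower. Tipin read 457 and 439.8 against 311 and 323, with little spread in either group, and did not pass (1.42-fold lower, adjusted p = 0.107). The partners thus stood lower in both G2 libraries, and whether they differ in size of change was not tested.

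**Figure D3:**
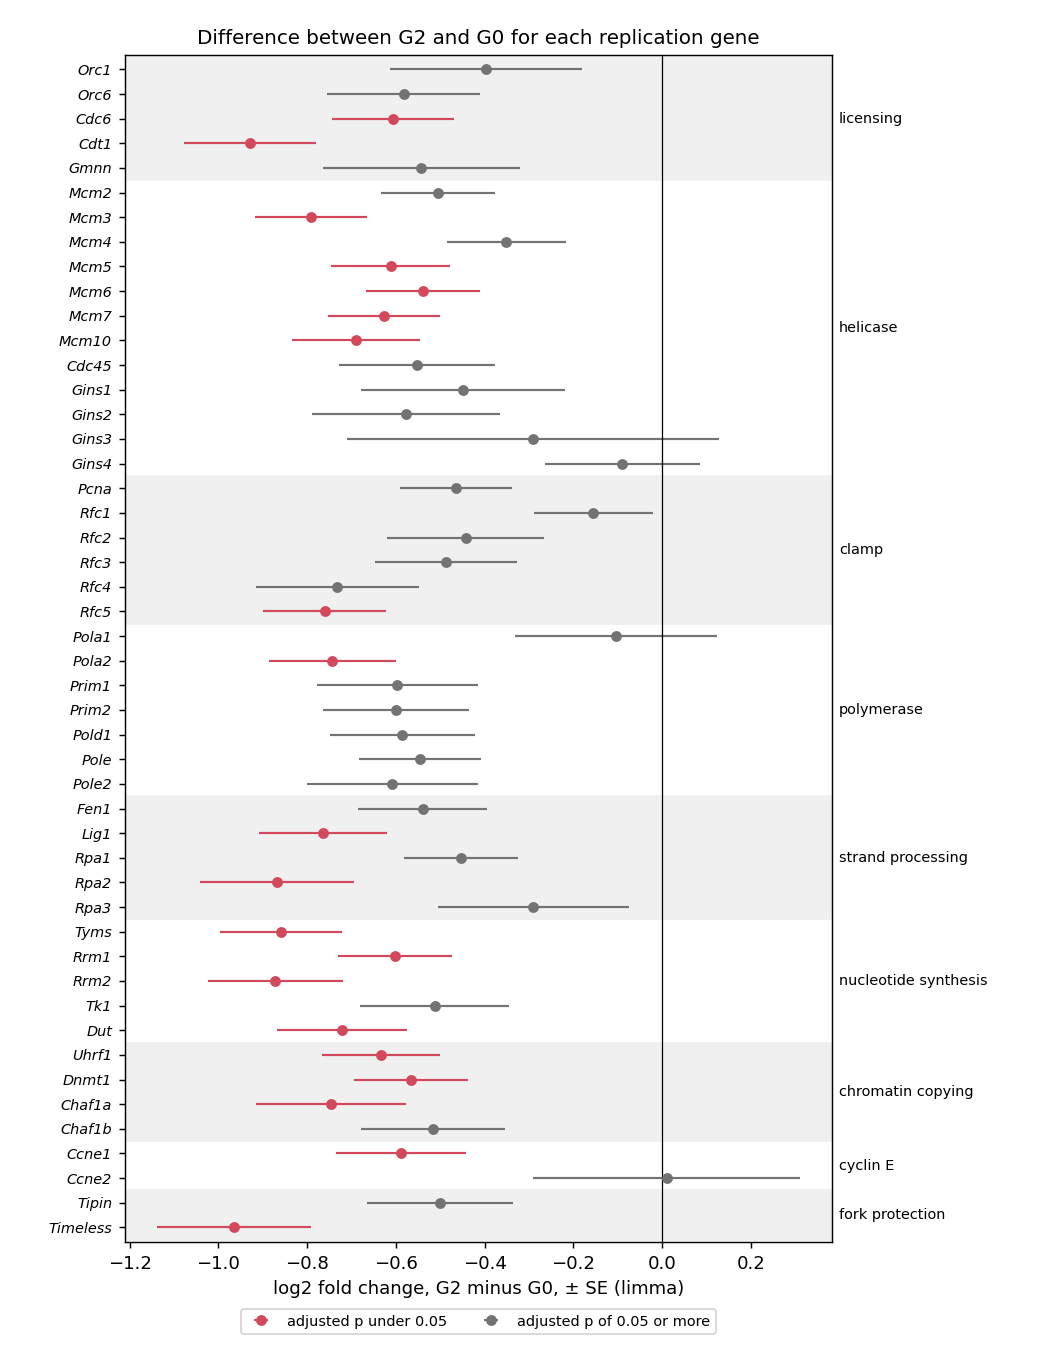
Log2 fold change of each replication gene, G2 minus G0, with its standard error from limma, grouped by role. Red marks are the 20 genes past an adjusted p of 0.05 and grey marks the 28 others. From Timeless at -0.96 to Ccne2 at 0.01, 47 of the 48 marks lie left of 0.

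The median absolute log2 difference between replicates of the 48 genes was 0.12 in G0 and 0.12 in G2. Gins3 had the widest gap in both groups (-0.78 in G0 and 0.83 in G2, replicate 2 minus replicate 1). With each gene set against its G0 mean, the median of the 48 genes was -0.02 and 0.02 in the G0 libraries and -0.62 and -0.53 in the G2 libraries.

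Other genes of replication and nucleotide metabolism were read from a list of 63 partners. Of these 5 fell (7.94%, near the 4.56% of all genes tested) and 0 rose in limma, where 26 were lower and 0 higher at an unadjusted p under 0.05. Of all 13981 genes tested, 1774 were lower and 1969 higher at that unadjusted threshold. Their median was -0.35, and 46 of 63 lay lower in both G2 libraries (73.0%, against 28.6% of all genes tested). The 5 calls were lost without the trend in limma, where 241 of all 13981 genes tested were called lower. They could not be checked by leaving 1 library out, since 1 group then holds a single line. None of 13 initiation partners passed (0 of 13, with 4 at an unadjusted p under 0.05). Orc2, Orc3, Orc4 and Orc5, the remaining numbered subunits near Orc1 and Orc6, had log2 fold changes of -0.09, -0.12, 0.28 and -0.13, and Orc2, Orc4 and Orc5 overlapped between the groups. Recql4 and Ticrr, which act when the helicase is switched on, had log2 fold changes of -0.75 and -0.77 (adjusted p = 0.0649 and 0.0661). Pold2, a polymerase delta subunit, fell 1.70-fold, from 2201 and 2735 to 1555 and 1349.9 (adjusted p = 0.0291).

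Among 26 nucleotide partners 3 fell (11.5%, against 4.56% of all genes tested). Both G2 libraries lay below both G0 libraries for 19 of the 26 (73.1%, against 28.6% of all genes tested) and above both for 4. Impdh1, which commits purines to guanine nucleotides, went from 1639.8 and 1849.8 in G0 to 847 and 786 in G2, 2.14-fold lower (log2 fold change -1.09, SE 0.14, adjusted p = 0.00529). Shmt2 and Mthfd1, enzymes of the folate cycle that feeds purine and thymidylate synthesis, fell as well: Shmt2 from 5434 and 5716 to 3379 and 3144 (adjusted p = 0.0131), and Mthfd1 from 2739.5 and 2838 to 1933 and 1776 (adjusted p = 0.0327). Rrm2b, the alternative small subunit of ribonucleotide reductase, had 283 and 173 in G0 and 309 and 297 in G2, higher in both G2 libraries but not past the threshold (adjusted p = 0.315). Paics, Tk2 and Cmpk1 likewise lay higher in both G2 libraries without passing (adjusted p = 0.555, 0.382 and 0.290). Nasp, a histone chaperone, was the 1 of 10 fork and chromatin partners that fell, from 1355 and 1211 to 813 and 896 (adjusted p = 0.0468). Its call ended with scaling by library totals or upper quartile (adjusted p = 0.0949 and 0.0534). It also ended with a pseudocount of 0.5 and without a filter on low values (0.0501 and 0.0639). The call on Mthfd1 ended with library totals (0.0559) and that on Pold2 without the filter (0.0508).

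**Figure D4:**
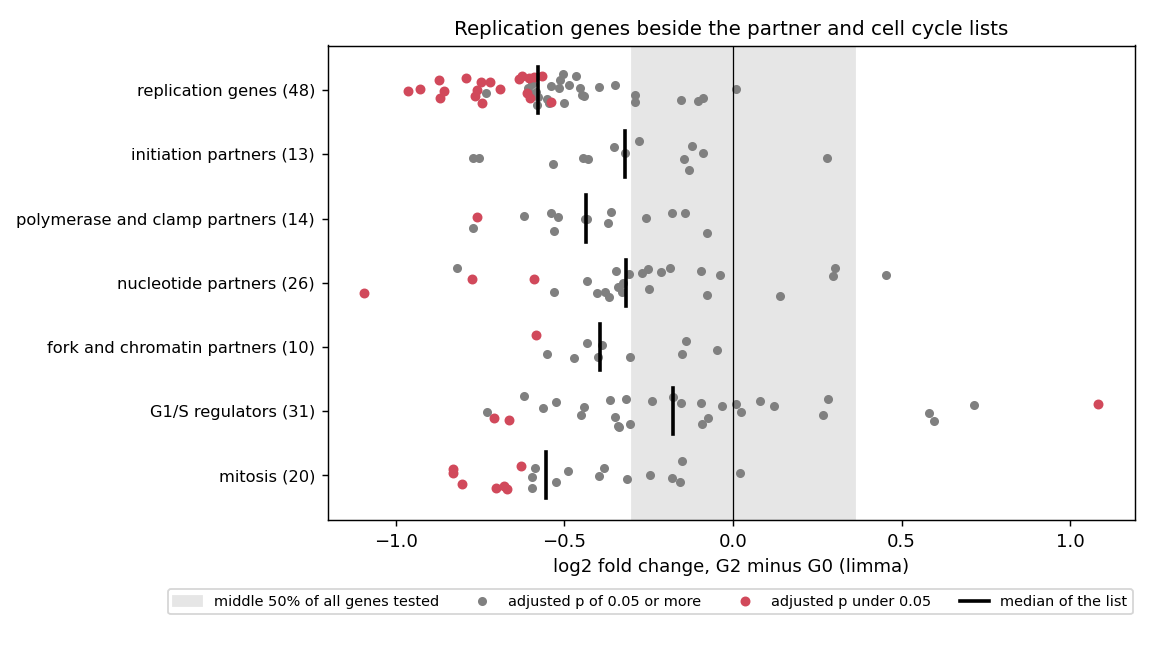
Log2 fold change, G2 minus G0, of the 48 replication genes, the 4 partner lists, the G1/S regulators and a list of mitotic genes. Each mark is a gene, red where its adjusted p is under 0.05, the black bar is the median of the list and the grey band holds the middle 50% of all genes tested. The medians run from -0.58 for the replication genes to -0.18 for the G1/S regulators.

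Of 31 regulators of entry into S phase 2 fell (6.45%, near the 4.56% of all genes tested), 1 rose, where 5.93% of all genes tested did, and 28 did not pass. Their median was -0.18. Cdk2, the kinase that cyclin E activates, fell 1.63-fold from 787 and 837 to 483 and 510.2 (adjusted p = 0.0283), and Ccna2, the cyclin A of S phase, fell 1.58-fold from 3987 and 3856 to 2665 and 2298 (adjusted p = 0.0271). Cdk6, a kinase partner of the D cyclins, rose 2.06-fold from 2716 and 1696 to 4624 and 4473 (adjusted p = 0.0264). The call on Cdk6 ended without a filter on low values (adjusted p = 0.0548) and that on Ccna2 with scaling by library totals (adjusted p = 0.0508). E2f1, an activator of replication genes, stood at 951 and 1045 in G0 and 786 and 793 in G2, and E2f7, a repressor of the same family, at 489 and 447 against 325 and 244 (adjusted p = 0.179 and 0.0663). Of the inhibitor genes, Cdkn1a had 8294 and 7933 in G0 and 7758 and 6076 in G2 (adjusted p = 0.382). Cdkn2b went from 1142 and 1342 to 1735 and 1974, and Cdkn1c from 104 and 72.1 to 122 and 167. Both lay higher in both G2 libraries without passing (adjusted p = 0.0544 and 0.188). Cdkn1b, Cdkn2a, Cdkn2c and Cdkn2d overlapped between the groups. The values of E2f1, E2f7 and the inhibitor genes, and of the partners named above that did not pass, were known when these genes were picked.

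Among mitotic genes, 7 of 20 fell (35.0%, against 4.56% of all genes tested), 0 rose, and the median was -0.56. Kif11, Cenpe, Cenpf and Mki67 overlapped between the groups, and the other 16 lay lower in both G2 libraries (80.0%, against 28.6% of all genes tested). Mki67 stood at 7676 and 7624 in G0 and at 8400 and 5654 in G2 (adjusted p = 0.669 in limma). Plk1, Ccnb2, Ube2c and Aurka fell 1.77-fold, 1.76-fold, 1.79-fold and 1.62-fold (adjusted p = 0.0196, 0.0220, 0.0257 and 0.0293). Without the trend in limma, Cdk2, Ccna2, Cdk6 and these 4 mitotic genes did not pass (adjusted p from 0.101 to 0.142). Their calls could not be checked by leaving 1 library out, since 1 group then holds a single line. No test compared the mitotic with the replication genes.

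Of 7 markers of differentiated colonocytes 1 rose in G2, and 5 were abundant enough to be tested. Their summed level came to 40.3 and 107 in G0 and 4145 and 514 in G2, nearly all of it from Car1, a carbonic anhydrase of the colon surface, which rose from 38.3 and 107 to 4019 and 508 (adjusted p = 0.0264). Slc26a3, Car4 and Alpi were at 0 in every library but G2 replicate 1. Krt20 read 0.98 and 0 in G0 against 93.8 and 4.89 in G2, with an adjusted p of 0.088 in limma. Car1 and Krt20 were thus far higher in G2 replicate 1 than in G2 replicate 2. Aqp8 read 15.1 and 0 in these libraries and Guca2a 2.02 and 0.98, which are low values. The G2 libraries, replicate 1 first, had summed replication gene levels of 48505 and 48499. Their median log2 differences of the 48 genes from the G0 means were -0.62 and -0.53. How these levels go with the markers was not tested, and 2 libraries could not decide it. Leukocyte markers summed to 0.98 and 1.02 in G0 and to 23.2 and 28.3 in G2 over the 3 of 6 listed that were measured, with Ptprc at 0 in all 4 libraries. Fibroblast markers summed to 4.91 and 4.06 in G0 and 8.07 and 10.8 in G2 over 5 of 6, with Pdgfra and Dcn at 0. Endothelial markers summed to 3.93 and 4.06 in G0 and 48.4 and 46.9 in G2 over 3 of 4, almost wholly Tek, with Pecam1 and Cdh5 at no more than 1.95. In each of the leukocyte, fibroblast and endothelial lists 1 gene rose and 0 fell in limma. Csf1r rose from 0 and 0 to 16.1 and 4.89, and Col3a1 from 0 and 0 to 7.06 and 6.84 (adjusted p = 0.0431 and 0.0404). Tek rose from 2.95 and 4.06 to 47.4 and 45.0 (adjusted p = 0.00587). The part of these cells in the lower replication gene levels was not tested.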

How the data were processed

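The authors deposited 1 table of log2 values, with the same lowest value of 6.508 in every library, the form a variance-stabilizing transformation gives. RNA was isolated with an RNeasy kit, per the labels. Per the submitters' processing notes, the build was mm10 and the tools were DESeq2 1.32.0, R 3.5.2, StringTie 2.1.1, HISAT2 2.1.0 and bcl2fastq 2.20.0. For annotation, strand setting and read filters, the sources used here give nothing. To recover counts, the transformation was inverted with that lowest value as its only constant, and 1 factor per library made 100% of the values whole within 0.001. StringTie estimates coverage, so these counts can be rounded estimates. The test was limma 3.58.1 in R 4.3.3 with its intensity trend. It ran on log2(normalized count + 1) of the 13981 genes whose mean reached 1, with group as the only term, two-sided, Benjamini-Hochberg adjusted over all genes, threshold 0.05. On this scale the pseudocount shrinks the changes of genes with low counts. Folds in words are ratios of mean normalized counts. The fit was also run on simulated counts, with the same dispersion for every gene and changes larger than those of the 48 genes. That run therefore does not measure how sure the calls reported here are. Positions are from RefSeq on GRCm38.p6, the assembly of mm10, and cover 48 of 48 genes. Transcript length and GC content are from GENCODE M21. Copies were sought at 95% identity over at least 30% of a transcript. Members, lists and tests were chosen with earlier results of these data known. Values per library were given for every member past the threshold and, in each role, for those with the smallest p and the extreme log2 fold changes. Of the partner, G1/S and mitosis lists the rule named up to 4 genes past the threshold by p. The alternatives were other scalings, pseudocounts, filters, the deposited scale, no trend, a replicate block and each library left out, and a GC correction added after seeing the data.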

Additional observations from a re-analysis of the deposited data

How the results depend on the processing

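The 20 replication genes that fell kept their direction under every alternative run, with log2 fold changes between -0.97 and -0.47, and between -1.08 and -0.47 with 1 library left out. With 1 library left out the median of the 48 genes ran from -0.615 to -0.532, and the Tert log2 fold change from -6.59 to -5.61. Calls are not given for these fits, since 1 group then holds a single line. Scaling by library totals gave 13 replication genes and 3 partners that fell and a median of -0.514, and moved the share of lower calls among all calls from 43.5% to 37.0%. The deposited values gave a median of -0.469, and limma without a trend 0 replication genes and 0 partners (35 replication genes at an unadjusted p under 0.05). Without the trend 241 of all 13981 genes tested were called lower. No filter on low values gave 16 replication genes and 3 partners, and the GC correction 33 replication genes and 11 partners. Over the whole table these 2 settings called 444 of 15567 and 972 of 13981 genes lower, where the main fit called 638 of 13981. The replicate number as a block gave 39 replication genes and 23 partners, and 3503 genes in all where the fit without it called 1467. Deviations of same-numbered libraries correlated at 0.17 across 12080 genes, with 2 numbers and no label that ties them. Whether same-numbered libraries share more than the number was not tested. With 1 library left out, Gins3 ran from -0.706 to 0.124, Gins4 from -0.270 to 0.091, Pola1 from -0.368 to 0.161 and Ccne2 from -0.305 to 0.325. Signs turned for Gins3 without G0 replicate 1 (0.097) and without G2 replicate 1 (0.124), for Pola1 without G0 replicate 1 (0.161), for Gins4 without G2 replicate 1 (0.091), and for Ccne2 without G0 replicate 2 (-0.291), without G2 replicate 1 (-0.305) and with the GC correction (-0.330). Apart from fewer samples, the cause was not tested. At this depth the least abundant of the 48 genes had a mean of 64.2 normalized counts.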
